A study of Bos taurus with 8 samples.

Results

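Satellite cells (SCs) from the cultures that had been sorted for SCs were compared between passage 2 (P2) and passage 0 (P0) in 3 cattle. The members were all cells that carried the deposited cell type label SCs and had been assigned by genotype to animal 5, 6 or 10, the donors of the sorted SC cultures. They were 4205 of the 36129 cells of the series, with 906 cells at P0 and 3299 at P2. Animal 5 contributed 163 SCs at P0 and 1125 at P2, animal 6 contributed 469 and 1085, and animal 10 contributed 274 and 1089.

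The series profiled single cells of the semitendinosus muscle of Belgian Blue cattle, fresh from the muscle and at passages 0, 2, 5 and 8 of culture, with 1 droplet library per timepoint that pooled the cells of all animals. Animal 5 was a female calf, animal 6 a male adult and animal 10 a male calf. At P0 the cells of each animal had spent 72 h unsorted on fibronectin in a serum-free growth medium, so SCs grew beside fibro-adipogenic progenitors (FAPs), endothelial cells and smooth muscle cells. The cells were then sorted by FACS as negative for CD45 and JAM-1, positive for ITGA7 and negative for ITGA5, and the SCs were grown in the same medium on recombinant laminin and passaged when confluent. The SCs of 3 unsorted cultures kept on fibronectin (animals 1, a female adult, 2, a female calf, and 9, a female adult) and the FAPs of 3 sorted FAP cultures on collagen I (animals 4 and 7, female calves, and 8, a male adult) served for comparison. In the sorted SC cultures, passage number, the sort, the coating, the loss of other cell types from the dish and the sequencing library all changed between P0 and P2, and their effects cannot be told apart.

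SCs are the resident stem cells of skeletal muscle. When activated they express the myogenic factors MYF5 and MYOD1 and divide, and on leaving the cell cycle they express MYOG, fuse into myotubes and build sarcomeres. In cultured meat they are the starting cells for muscle fibres, and their proportion in a culture and the timing of their differentiation determine how much muscle a culture can give.

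SCs made up 16.3% of the cells of animal 5, 36.9% of animal 6 and 18.9% of animal 10 at P0, and 98.3%, 99.4% and 98.9% at P2. Their summed UMIs per animal were 2964182 to 9630375 at P0 and 23552927 to 31783784 at P2, and the median UMIs per cell were 17401 to 19774 and 20507 to 27795. A count of 3 UMIs over all SCs of a passage corresponded to 0.167 CPM at P0 (UMIs scaled to a total of 1000000 per animal and passage) and 0.0345 CPM at P2, so low transcripts were measured more precisely at P2. The P0 and P2 libraries had 26 cell barcodes in common.

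The deposited label was checked against known markers at P0. MYF5, the earliest factor of myogenic commitment, was at 70.6 CPM in the SCs and 2.75 CPM in the 2424 FAPs of the same animals, and ITGA7, the laminin receptor subunit used in the sort, was at 55.5 and 5.17 CPM. ITGA7 did not set the SCs apart from the 134 smooth muscle and mesenchymal cells, which held 81.6 CPM of it and 2.75 CPM of MYF5. DES was at 53.4 CPM in the SCs and 263 CPM in those cells. Levels set against other cell types, here and below, are pooled over the 3 animals. The FAP marker PDGFRA was at 70.1 CPM in the SCs and 322 CPM in the FAPs, whereas PTPRC, which encodes CD45, had no UMI in the SCs of either passage. DCN and LUM, matrix genes of FAPs, had UMIs in most SCs at both passages, with DCN in 87.5% at P0 and 92.2% at P2 of cells thinned to 5000 UMIs each. Of the SCs, 586 of 906 at P0 and 3229 of 3299 at P2 held a UMI of ITGA7, NCAM1, MYF5, PAX7 or MYOD1 and no fewer UMIs of these 5 genes than of PDGFRA and ITGA5. Counts restricted to these SCs with SC marker UMIs, which were selected on those genes, are given beside the main ones.

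UMIs were summed per animal and passage, and P2 was compared with P0 within animals, with n = 3 animals throughout. A gene was called higher or lower where the edgeR quasi-likelihood F test gave an adjusted p under 0.05 and the log2 fold change exceeded 1 in size, and "rose" and "fell" are used for such calls alone. The p-values of this comparison cover the spread between these 3 animals, and those of differences between cultures the spread between the animals of those cultures. With 1 library per passage, none covers the spread between libraries. Of 11637 genes tested, 700 (6.02%) were called higher and 527 (4.53%) lower at P2, around a median log2 fold change of 0.01. Counts of called genes in the lists below are to be read against these shares.

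The myogenic factors moved unequally between P0 and P2. PAX7, the factor that marks quiescent and self-renewing SCs, was at 5.53, 3.36 and 4.73 CPM in animals 5, 6 and 10 at P0 and at 4.48, 4.99 and 4.27 CPM at P2. The passages overlapped, and the log2 fold change of 0.08 ± 0.26 (SE) was not called (adjusted p = 0.86). MYF5 was at 66.4, 73.4 and 66.8 CPM at P0 and 156, 147 and 153 CPM at P2, with every animal close to the others within a passage and no overlap between passages. It rose by 1.14 ± 0.11 on the log2 scale (adjusted p = 0.00088). In the SCs with SC marker UMIs the log2 fold change of MYF5 was 0.71 (adjusted p = 0.003), in cells in S or G2M it was 0.81 (adjusted p = 0.0013), and without cells that had more FAP than SC marker UMIs, which removed 835 SCs at P0 and 2582 at P2, it was 0.59 (adjusted p = 0.099), each short of the fold required for a call. This last rule set UMIs of PDGFRA, DCN, LUM and ITGA5 against those of ITGA7, MYF5, NCAM1 and DES, so it selected cells on MYF5 itself. Values under it for these genes, and for lists that hold them, are not independent of the selection, here and below. At P0 it removed 136 of 163, 446 of 469 and 253 of 274 SCs of animals 5, 6 and 10.

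MYOD1, which drives proliferating SCs towards differentiation, was at 38.0, 4.89 and 6.62 CPM at P0 and 179.6, 171 and 46.0 CPM at P2 in animals 5, 6 and 10. The P0 value of animal 5 was close to the P2 value of animal 10, and each animal was higher at P2 than at P0. The rise was 3.35 ± 0.69 (log2, adjusted p = 0.048). MYOG, the factor of terminal differentiation, was at 11.4, 0.204 and 0.189 CPM at P0 and 222, 129.6 and 21.9 CPM at P2. The passages did not overlap, but animal 10 remained far below the others at P2. MYOG rose by 5.78 ± 0.86 (adjusted p = 0.023). Both calls were lost without animal 10, at log2 fold changes of 3.59 for MYOD1 (adjusted p = 0.37) and 5.73 for MYOG (adjusted p = 0.31), and MYOD1 also missed the threshold in the SCs with SC marker UMIs (log2 fold change 2.76, adjusted p = 0.12). In all, MYOD1 lost its call under 8 of 14 alternatives (adjusted p = 0.057 to 0.42) and MYOG under 4 of 13 (adjusted p = 0.11 to 0.31). Without cells that had more FAP than SC marker UMIs the log2 fold changes were 1.81 for MYOD1 and 4.54 for MYOG.

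The rise also showed in the number of cells with a UMI once all cells were thinned to the same depth. On average over the 3 animals, a MYOG UMI was found in 0.654% ± 1.13 (SD) of SCs at P0 and 9.69% ± 6.05 at P2, with 15.5%, 10.2% and 3.41% in animals 5, 6 and 10 at P2. In the FAPs of the sorted FAP cultures, which should lack it, the MYOG share was 0% at P0 and 1.502% ± 0.162 at P2. Unthinned, the MYOG shares were 1.70% and 17.5% in the SCs and 0.103% and 7.35% in the FAPs. MYOD1 UMIs were found in 4.75% ± 3.83 of thinned SCs at P0 and 35.9% ± 15.5 at P2, against 0.169% and 1.27% of FAPs. For MYF5 the shares were 27.1% ± 1.32 and 44.8% ± 2.02, and for PAX7 1.85% ± 1.15 and 2.55% ± 0.414. MYOG, MYOD1 and MYF5 shares were higher at P2 in 3 of 3 animals (exact sign-flip permutation test, two-sided p = 0.25 each, the smallest that 3 pairs allow), and the PAX7 share in 2 of 3 (exact p = 0.75). The plot of the SC markers shows these genes by animal.

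**Figure D1:**
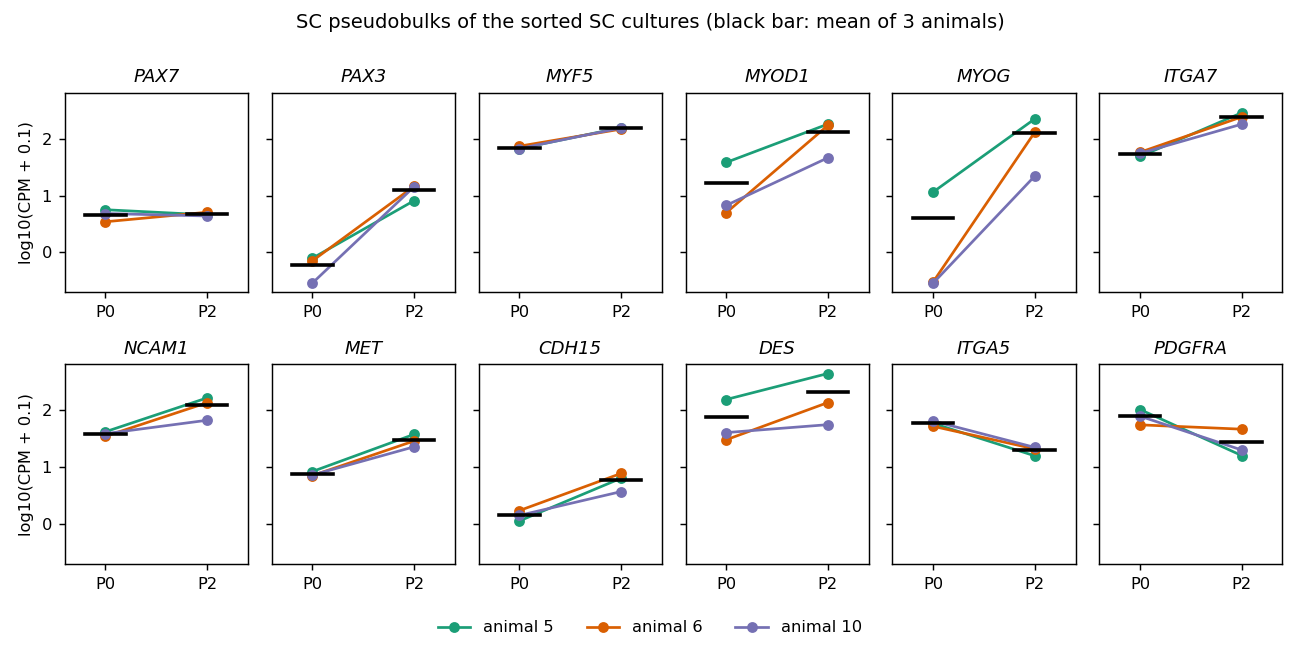
Levels, as log10(CPM + 0.1), of 12 SC and FAP marker genes at P0 and P2 in the SCs of animals 5, 6 and 10, with 1 line per animal and a black bar at the mean. MYF5, ITGA7 and MET rose in parallel in all 3 animals, MYOD1 and MYOG rose from different starting levels, PAX7 stayed between 3.36 and 5.53 CPM, and ITGA5 fell.

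Among the receptors of SCs, ITGA7 was at 48.4, 57.4 and 55.0 CPM at P0 and 284, 240.4 and 179 CPM at P2 in animals 5, 6 and 10. The passages were well apart, and ITGA7 rose by 2.10 ± 0.17 (log2, adjusted p = 0.00055). ITGA5, the fibronectin receptor subunit, was at 58.8, 52.2 and 64.7 CPM at P0 and 15.7, 20.8 and 22.2 CPM at P2, and fell by 1.58 ± 0.15 (adjusted p = 0.00083). Both belonged to the sorting gate. In the unsorted SCs, with no sort, the share of thinned cells with an ITGA7 UMI was 21.7% ± 1.85 (SD) at P0 and 31.2% ± 11.4 at P2, higher in 3 of 3 animals, and the ITGA5 share was 24.8% ± 1.25 and 11.4% ± 3.88, higher in 0 of 3. In the sorted SCs the ITGA7 shares were 22.6% ± 2.08 and 61.2% ± 7.87 and the ITGA5 shares 24.9% ± 4.51 and 8.80% ± 1.34 (exact sign-flip permutation test, p = 0.25 in each of these 4 comparisons). MET, the receptor of hepatocyte growth factor, rose by 1.95 ± 0.17 (adjusted p = 0.00057), and CDH15, the M-cadherin that joins SCs to the fibre, rose by 2.07 ± 0.30 (adjusted p = 0.0046). NCAM1, an adhesion molecule of SCs and myoblasts, was at 41.8, 34.8 and 38.8 CPM at P0 and 165, 136 and 66.7 CPM at P2, with no overlap, and rose by 1.58 ± 0.26 (adjusted p = 0.012). That call was lost without animal 6 (log2 fold change 1.36, adjusted p = 0.13). JAM-1 (F11R), the remaining surface protein of the gate that had UMIs, was at 1.18 ± 1.39 CPM (SD) at P0 and 0.982 ± 0.472 CPM at P2 and was not called (adjusted p = 0.88).

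Of 30 SC identity and myogenic genes tested, 13 were called higher and 2 lower, with a median log2 fold change of 0.82. In the SCs with SC marker UMIs the counts were 10 and 2, and without cells that had more FAP than SC marker UMIs they were 5 and 0. PAX3, the paralogue of PAX7, was at 0.691, 0.611 and 0.189 CPM at P0 and 8.01, 14.4 and 14.1 CPM at P2, and rose by 4.71 ± 0.36 (adjusted p = 0.00046). No P0 value of PAX3 came near a P2 value. MEF2C, a partner of the myogenic factors, rose by 3.29 ± 0.55 (adjusted p = 0.0077), and CDH2, the N-cadherin, by 1.87 ± 0.32 (adjusted p = 0.0097). FGFR4, a fibroblast growth factor receptor of myoblasts, rose by 2.78 ± 0.51 (adjusted p = 0.032), a call lost under 6 of 14 alternatives, among them without animal 10 (adjusted p = 0.26), in the SCs with SC marker UMIs (log2 fold change 2.35, adjusted p = 0.1) and without cells that had more FAP than SC marker UMIs (0.64, adjusted p = 0.62). Under the last of these CDH2 (1.80, adjusted p = 0.062) and SDC4 (-0.78) were not called either. The 2 genes that fell were CHODL, a C-type lectin of SCs, which fell by 3.25 ± 0.48 (adjusted p = 0.0057, and 0.052 without animal 5), and SDC4, a heparan sulphate co-receptor of SCs, which fell by 1.04 ± 0.13 (adjusted p = 0.0027). Without animal 6 or 10 the change in SDC4 was within the limit of 1 on the log2 scale, at -0.99 and -0.93.

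Genes of terminal differentiation were 8 of the 12 called genes with the largest rise among those with a mean of 20 CPM or more at a passage. Here and below, this ranking and that of the largest falls cover only genes with a symbol that changed in the same direction in every animal. Of 34 differentiation and sarcomere genes tested, 27 rose and 1 fell, with a median log2 fold change of 5.06 (4.94 with the genes that had no UMI at P0 set to their lower bound), against 0.01 over all genes. The list had 43 genes in the annotation. Of those tested, 4 had no UMI at P0 and passed the count filter through P2 alone, so the count and the median lean towards genes high at P2. In the SCs with SC marker UMIs 24 rose and 1 fell, in SCs without a MYOG UMI 16 rose and 1 fell (median 4.02), and in SCs in S or G2M 12 rose and 1 fell (median 3.60).

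MYLPF, the fast regulatory myosin light chain, was at 1.73, 0.306 and 0.378 CPM at P0 and 852, 432 and 107 CPM at P2 in animals 5, 6 and 10, and rose by 9.44 ± 0.28 (log2, adjusted p = 2.5e-05). TNNC2, the fast troponin C, was at 1.04, 0.713 and 0.567 CPM at P0 and 591, 249.6 and 60.1 CPM at P2, and rose by 8.38 ± 0.28 (adjusted p = 2.7e-05). ACTC1, the cardiac alpha-actin that embryonic and regenerating skeletal muscle also expresses, was at 26.6, 1.22 and 0.567 CPM at P0 and 3468, 1629 and 219 CPM at P2, and rose by 8.31 ± 0.82 (adjusted p = 0.01). For these 3 genes no P0 value reached a P2 value, and animal 5 was highest and animal 10 lowest at P2, as for MYOG. TNNT2 rose by 7.17 ± 0.60 (adjusted p = 0.0028), TNNC1 by 6.56 ± 0.32 (adjusted p = 8.0e-05) and NEB by 5.75 ± 0.62 (adjusted p = 0.0092), which encode troponin T and C subunits and the giant thin filament protein nebulin. The calls of ACTC1 (adjusted p = 0.25) and NEB (adjusted p = 0.14) were lost without animal 10, and that of TNNT2 without animal 6 (adjusted p = 0.056).

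Several of these genes were almost or wholly without UMIs at P0. MYMK, the membrane protein that drives myoblast fusion, had no UMI at P0 and 1887 at P2, which was at least 129.6-fold higher when P0 was set to 3 UMIs over the group. By the same bound the skeletal troponins TNNT3 and TNNI1 were at least 57.0-fold and 55.8-fold higher, and the myosin light chain MYL1 at least 32.8-fold. MYH3, the embryonic myosin heavy chain, had 1 UMI at P0 and 4321 at P2 (ratio of CPM 890.02, 95% exact binomial interval 159.7 to 35162), and ACTA1, the skeletal alpha-actin, had 3 and 6785 (ratio 466, interval 159.3 to 2259.5). These intervals cover counting error only. DES, the muscle intermediate filament, was already at 155, 30.2 and 40.5 CPM at P0 and at 443, 137 and 55.8 CPM at P2. It was higher at P2 in each animal but the passages overlapped, and the log2 fold change of 1.40 ± 0.34 was not called (adjusted p = 0.051). It was called without animal 10 (log2 fold change 1.84, adjusted p = 0.00016), by DESeq2 (1.38, adjusted p = 3.1e-05), with RLE size factors (1.39, adjusted p = 0.047) and after thinning to the smallest sum (1.46, adjusted p = 0.041). TRIM63, the ubiquitin ligase MuRF1 that degrades sarcomere proteins, was the 1 member called lower and fell by 5.16 ± 0.44 (adjusted p = 0.00061).

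**Figure D2:**
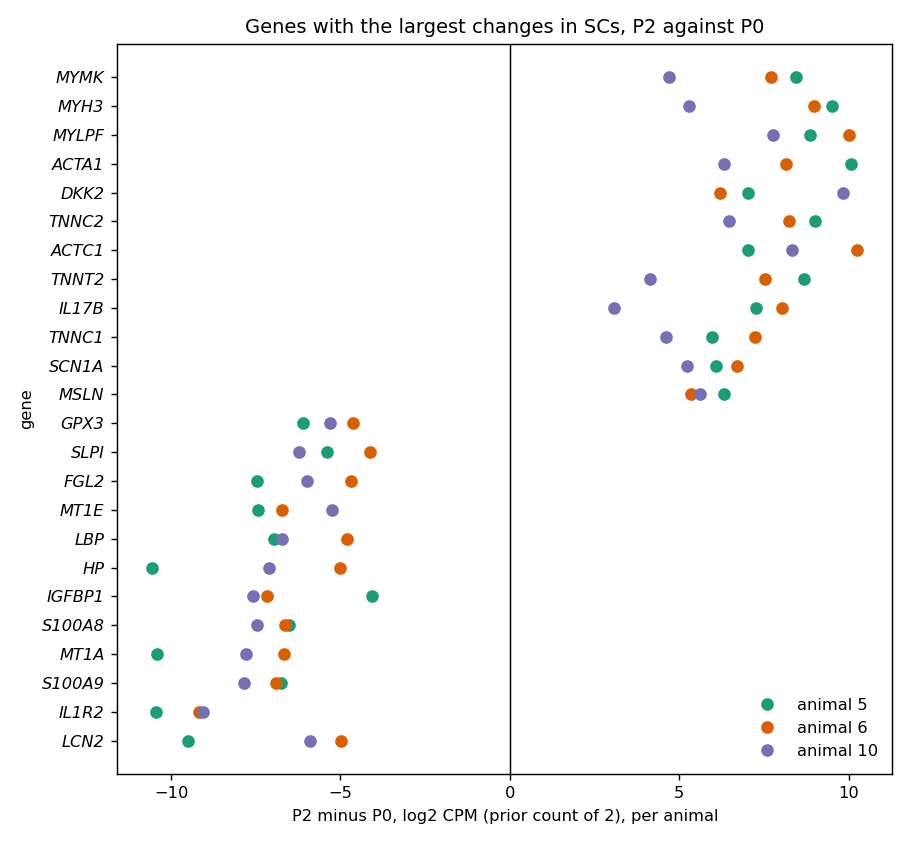
Difference in log2 CPM (P2 minus P0, prior count of 2), with 1 point per animal, for the 12 called genes with the largest change in each direction among those with a mean of 20 CPM or more at a passage. Only genes with a symbol that changed in the same direction in all 3 animals were eligible. That the 3 animals lie on the same side of 0 for all 24 genes follows from this rule. Muscle structure and fusion genes (MYMK, MYH3, MYLPF, ACTA1, TNNC2) stand among the higher genes, and IL1R2, LCN2 and metallothionein genes among the lower ones.

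Outside the muscle programme, 4 secreted or membrane proteins were among the 12 called genes with the largest rise at a mean of 20 CPM or more. DKK2, a secreted modulator of WNT receptors, had 2 UMIs at P0 and 5636 at P2, or 59.5, 15.7 and 104 CPM in animals 5, 6 and 10 at P2 (ratio 580.4, 95% exact binomial interval 160.6 to 4794). SCN1A, a subunit of a voltage-gated sodium channel, rose by 6.30 ± 0.28 (log2, adjusted p = 6.7e-05) and reached 54.7, 64.2 and 39.3 CPM at P2. IL17B, a cytokine of the interleukin 17 family, rose by 7.15 ± 0.65 (adjusted p = 0.0021), and MSLN, the surface protein mesothelin, by 5.89 ± 0.25 (adjusted p = 5.9e-05). All were below 1 CPM in every animal at P0.

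Few cell cycle genes were called in the sum over cells. Of 46 DNA replication genes tested, none rose and 1 fell (median log2 fold change -0.54), but 8 fell without animal 10 (median -0.83), 13 fell without cells that had more FAP than SC marker UMIs (median -0.85), and none without animal 5 or without animal 6. The gene that fell was GINS4, a subunit of the replicative helicase, which fell by 1.02 ± 0.24 (adjusted p = 0.025, and 0.10 without animal 5). Of 47 mitosis genes, none was called in either direction (median -0.36). MKI67, the proliferation marker, was at 264, 234 and 228 CPM at P0 and 224, 172 and 217 CPM at P2, with a log2 fold change of -0.25 ± 0.11 that was not called (adjusted p = 0.15). TOP2A, the topoisomerase that untangles chromosomes before division, had a log2 fold change of -0.58 ± 0.13 (adjusted p = 0.023), short of the fold required. In cells thinned to the same depth, MKI67 UMIs were found in 46.3% ± 6.01 (SD) of SCs at P0 and 29.8% ± 8.54 at P2, lower in 3 of 3 animals (exact sign-flip p = 0.25).

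By the deposited cell cycle phases, 24.5%, 23.9% and 38.3% of the SCs of animals 5, 6 and 10 were in G1 at P0, and 47.0%, 63.8% and 38.0% at P2. The G1 share was higher at P2 in animals 5 and 6 and level in animal 10, a mean change of 20.7 ± 20.2 percentage points (SD, exact sign-flip permutation test p = 0.5). The share in S was lower in 3 of 3 animals (39.7% to 23.5% on average, exact p = 0.25). Among SCs in G1 alone, 29 of the mitosis genes and 18 of the DNA replication genes fell, and in SCs in S or G2M alone the medians of both lists were 0.12 and -0.16. The phases were scored by the authors on cell cycle genes, so these gene counts are not independent of the phase.

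**Figure D3:**
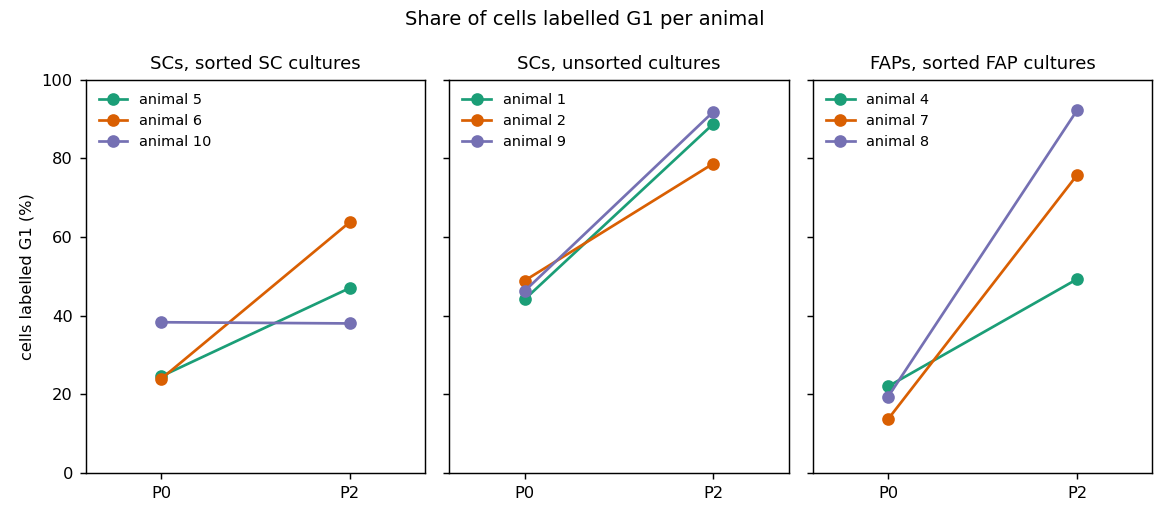
Percent of cells in G1 by the deposited phase at P0 and P2, with 1 line per animal, for SCs of sorted cultures, SCs of unsorted cultures and FAPs of sorted FAP cultures. The G1 share of sorted SCs ended between 38.0% and 63.8%, and that of the unsorted SCs between 78.7% and 91.9%.

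CCND1, the D-type cyclin that carries growth signals to the cell cycle, was at 13.8, 37.7 and 44.3 CPM at P0 and 384, 383 and 439 CPM at P2 in animals 5, 6 and 10. The P2 values lay close together and far above all P0 values, and CCND1 rose by 3.71 ± 0.32 (log2, adjusted p = 0.0027). CCND2, another D-type cyclin, rose by 2.15 ± 0.32 (adjusted p = 0.014). Inhibitors of cyclin-dependent kinases rose beside them. CDKN1C (p57) was at 64.0, 19.7 and 29.3 CPM at P0 and 798, 566 and 145 CPM at P2 and rose by 3.62 ± 0.60 (adjusted p = 0.03), and CDKN1A (p21) rose by 2.02 ± 0.22 (adjusted p = 0.0027). GADD45G, a growth arrest gene, rose by 2.69 ± 0.36 (adjusted p = 0.0094), and CDKN1B (p27) was not called (-0.20 ± 0.15, adjusted p = 0.38). Of 23 cyclin D and inhibitor genes tested, 8 rose and none fell, while 2 rose and 1 fell without animal 6. Without animal 6 the adjusted p was 0.079 for CCND1, 0.23 for CCND2, 0.11 for CDKN1C, 0.088 for CDKN1A and 0.15 for GADD45G, with log2 fold changes of 1.93 to 3.89.

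Among genes with a mean of 20 CPM or more at a passage, the 12 called with the largest fall were LCN2, IL1R2, S100A9, MT1A, S100A8, IGFBP1, HP, LBP, MT1E, FGL2, SLPI and GPX3. IL1R2, the decoy receptor that binds interleukin 1 without signalling, was at 562, 264 and 258 CPM at P0 and 0.286, 0.341 and 0.369 CPM at P2 in animals 5, 6 and 10, and fell by 10.02 ± 0.28 (log2, adjusted p = 2.5e-05). LCN2, a siderophore-binding acute phase protein, was at 105, 3.46 and 8.51 CPM at P0 and had 2 UMIs in all at P2 (ratio of P0 to P2 927, 95% exact binomial interval 255 to 7685). HP, haptoglobin, was at 361, 64.0 and 45.0 CPM at P0 and 0.127, 1.87 and 0.215 CPM at P2, and fell by 7.47 ± 1.34 (adjusted p = 0.043, and 0.38 without animal 10). In each of these genes animal 5 was highest at P0, and the passages did not overlap. LBP, the lipopolysaccharide-binding protein, fell by 7.03 ± 0.39 (adjusted p = 0.00021) and IGFBP1, a binding protein of insulin-like growth factors, fell by 7.61 ± 0.68 (adjusted p = 0.0018). FGL2, a secreted fibrinogen-like protein, fell by 6.40 ± 0.56 (adjusted p = 0.002, and 0.058 without animal 10).

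At P0, with UMIs pooled over the animals, LCN2, LBP, HP and IGFBP1 were at 21.3, 22.5, 107 and 21.4 CPM in the SCs of these animals and at 1.03, 0.418, 3.22 and 1.93 CPM in their FAPs. The SC levels of LCN2 and HP differed widely between animals, as given above, with animal 5 far above the others. The 10 glial cells of these animals, with 75649 UMIs in all, were at 397 CPM for HP, above the SCs. Their levels of LBP (39.7 CPM) and IGFBP1 (13.2 CPM) rest on very few UMIs and cannot be ranked against the SCs. IL1R2 was at 311 CPM in the pooled SCs, where animal 6 gave 9630375 of 17934576 UMIs. It was at 318 CPM in the FAPs, 349 CPM in the monocytes and macrophages, 185 CPM in the glial cells and 42.5 CPM in the vascular endothelial cells. As its SC level varied widely by animal, the SCs, FAPs and monocytes cannot be ranked. SLPI was at 20.0 CPM in the SCs and 113 CPM in the FAPs. S100A8 and S100A9, the calprotectin subunits of neutrophils and monocytes, had mean levels of 23.2 and 27.0 CPM at P0. S100A8 fell by 8.07 ± 0.29 (adjusted p = 3.2e-05) and S100A9 fell by 8.33 ± 0.34 (adjusted p = 5.3e-05). At P0 both were far higher in the 54 monocytes and macrophages of the same animals, at 1512 CPM for S100A8 and 1819 CPM for S100A9, and the FAPs held 27.7 CPM of S100A8. The part of RNA from those cells in the SC values of S100A8 and S100A9 was not tested.

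Among chemokines and targets of NF-kB, the transcription factor of inflammatory signalling, 17 of 36 genes tested fell and 1 rose, with a median log2 fold change of -1.80. In the SCs with SC marker UMIs 20 fell and 1 rose, and without animal 10, 11 fell and 1 rose. IL6, a cytokine that acts on many cell types, was at 55.0, 74.8 and 59.8 CPM at P0 and 1.30, 2.22 and 1.41 CPM at P2 in animals 5, 6 and 10, and fell by 5.28 ± 0.16 (adjusted p = 2.5e-05). CXCL8, which attracts neutrophils, fell by 4.55 ± 0.24 (adjusted p = 9.2e-05) and CSF3, a growth factor of granulocytes, fell by 4.73 ± 0.33 (adjusted p = 0.00031). Their passages did not overlap. SOD2, the mitochondrial superoxide dismutase induced by NF-kB, was at 1617, 1828 and 1902 CPM at P0 and 83.8, 295 and 195 CPM at P2, and fell by 3.39 ± 0.38 (adjusted p = 0.012). That call was lost without animal 6 (adjusted p = 0.06) and without animal 10 (adjusted p = 0.2). PTX3, a secreted pattern recognition protein, fell by 3.13 ± 0.33 (adjusted p = 0.0079, and 0.16 without animal 10). CXCL5, another chemokine for neutrophils, was at 575, 1035 and 681 CPM at P0 and 28.2, 197 and 44.6 CPM at P2, and fell by 3.56 ± 0.49 (adjusted p = 0.019, and 0.26 without animal 10). Pooled over the animals at P0, CXCL5 was at 860 CPM in the SCs and 4859 CPM in the FAPs. IL6 was at 67.5 and 326 CPM, CXCL8 at 28.7 and 61.1 CPM, PTX3 at 2034 and 2708 CPM and SOD2 at 1822 and 2103 CPM. The monocytes and macrophages held 347 CPM of IL6 and 1599 CPM of CXCL8. SAA3, serum amyloid A, was at 1912, 618 and 1312 CPM at P0 and 4.87, 65.4 and 10.9 CPM at P2 without overlap, but was not called (log2 fold change -6.35 ± 1.76, adjusted p = 0.12). It was called lower by DESeq2 (-6.44, adjusted p = 2.6e-06), with no replicate block (-5.57, adjusted p = 0.011) and without cells that had more FAP than SC marker UMIs (-6.03, adjusted p = 3.3e-06).

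The member that rose was IL18, an inflammasome cytokine (log2 fold change 1.54 ± 0.32, adjusted p = 0.029, and 0.22 without animal 10). Of 26 interferon-stimulated genes, none rose and 4 fell (median -0.33), and of 32 immediate early genes, none rose and 4 fell (median -0.22), with 1 to 7 lower without 1 animal.

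**Figure D4:**
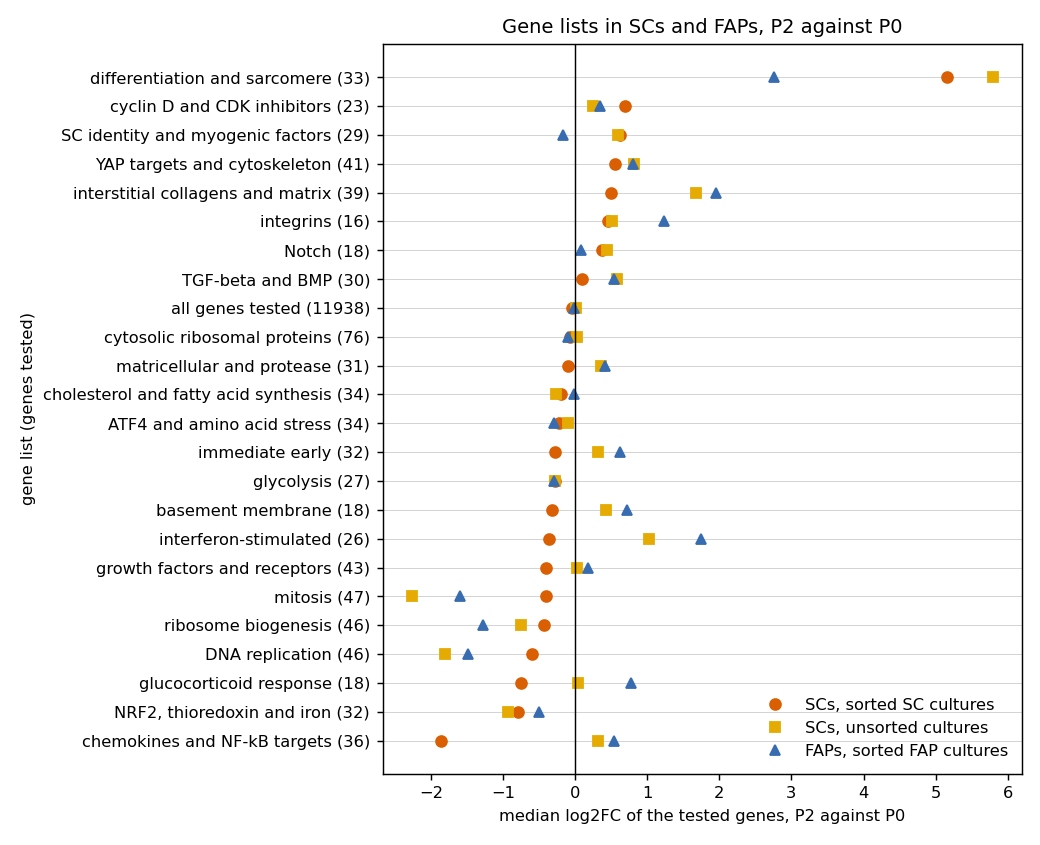
Median log2 fold change (P2 against P0) of each gene list in the SCs of sorted cultures, the SCs of unsorted cultures and the FAPs of sorted FAP cultures, from 1 fit of all 3, with the number of genes in brackets. The medians of differentiation and sarcomere genes were 5.16 in sorted SCs, 5.80 in unsorted SCs and 2.75 in FAPs, and those of chemokines and NF-kB targets were -1.86, 0.31 and 0.53. The part of RNA from SCs in the FAP values was not tested.

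In the list of NRF2, thioredoxin and iron genes, 11 of 32 tested fell, 21 were not called and none rose (median -0.74), and 7 fell without animal 6. MT1A, a metallothionein that binds zinc and copper, was at 8898, 2287 and 2930.1 CPM at P0 and 6.36, 22.5 and 13.1 CPM at P2 in animals 5, 6 and 10, and fell by 8.22 ± 1.28 (log2, adjusted p = 0.049). The passages were far apart in each animal, but the call was lost without animal 6 (adjusted p = 0.25), without animal 10 (adjusted p = 0.31) and in the SCs with SC marker UMIs (adjusted p = 0.06). Of the genes with the symbol MT1E, ENSBTAG00000001595 was at 4296, 2155 and 2279.9 CPM at P0 and 24.5, 20.5 and 60.0 CPM at P2, and fell by 6.48 ± 0.61 (adjusted p = 0.0087, and 0.26 without animal 6). The metallothioneins are near-identical copies, and how reads were split between them is uncertain. MT2A was at 12586 ± 2247 CPM (SD) at P0 and 473 ± 530.2 CPM at P2 and was not called (adjusted p = 0.069). It was called lower by DESeq2 (log2 fold change -5.40, adjusted p = 6.8e-09), with no replicate block (-4.73, adjusted p = 0.0082), without animal 5 (-4.75, adjusted p = 0.034) and without animal 10 (-6.29, adjusted p = 9.6e-09).

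FTH1, the heavy chain of the iron store ferritin, was at 18551, 19021 and 19729.8 CPM at P0 and 3162, 4757 and 3385 CPM at P2, with little spread between animals at either passage. It fell by 2.37 ± 0.12 (adjusted p = 0.00029), and its light chain FTL fell by 1.42 ± 0.10 (adjusted p = 0.00028). GPX3, a secreted glutathione peroxidase, fell by 5.39 ± 0.30 (adjusted p = 0.00026), and TXN, thioredoxin, fell by 1.54 ± 0.13 (adjusted p = 0.0011, and 0.11 without animal 6). Of 18 glucocorticoid response genes, 5 fell and 1 rose (median -0.70). SGK1, a kinase induced by glucocorticoids, fell by 2.51 ± 0.22 (adjusted p = 0.0011), and ANGPTL4, an inhibitor of lipoprotein lipase, fell by 3.48 ± 0.46 (adjusted p = 0.0077).

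Growth factor genes fell more often than they rose, with 10 of 43 lower and 3 higher. Over all genes 4.53% fell and 6.02% rose, so the 3 of 43 that rose were near the share over all genes. BTC, AREG and EREG, the ligands betacellulin, amphiregulin and epiregulin of the EGF receptor, had log2 fold changes of -3.17 ± 0.34 (adjusted p = 0.0016), -2.01 ± 0.18 (adjusted p = 0.0008) and -1.70 ± 0.11 (adjusted p = 0.00028), and all 3 were called lower. LIFR, the receptor of leukaemia inhibitory factor, was at 12.8, 2.85 and 3.97 CPM at P0 and 0.413, 0.341 and 0.707 CPM at P2 and fell by 3.52 ± 0.51 (adjusted p = 0.0049). The 3 genes that rose were MET and FGFR4, described above, and IGFBP2, a binding protein of insulin-like growth factors, by 5.53 ± 0.30 (adjusted p = 0.0001).

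In the TGF-beta and BMP list, 4 of 31 genes rose and 2 fell (median 0.15). The 2 of 31 that fell were near the share of 4.53% over all genes. LTBP1, which tethers latent TGF-beta to the matrix, was at 123, 36.5 and 97.6 CPM at P0 and 2.80, 2.77 and 2.40 CPM at P2 in animals 5, 6 and 10, and fell by 4.88 ± 0.40 (log2, adjusted p = 0.0024). FST, follistatin, which binds activins and myostatin, was at 4.49, 9.67 and 9.08 CPM at P0 and 253, 97.4 and 266 CPM at P2, and rose by 4.45 ± 0.51 (adjusted p = 0.01, and 0.19 without animal 10). INHBA, the subunit of activin A, was at 1.38, 5.40 and 8.13 CPM at P0 and at 49.1, 50.2 and 50.8 CPM at P2, and rose by 3.27 ± 0.34 (adjusted p = 0.0024). The P2 values of INHBA nearly coincided in the 3 animals. In the Notch pathway, which holds SCs in an undifferentiated state, 4 of 18 genes rose and none fell. They were the ligand DLL1 (2.28 ± 0.26, adjusted p = 0.0017), the receptors NOTCH3 (1.79 ± 0.27, adjusted p = 0.0059) and NOTCH1 (1.10 ± 0.22, adjusted p = 0.016) and the target HES1 (1.41 ± 0.24, adjusted p = 0.009). The call of NOTCH1 was lost without animal 5 (adjusted p = 0.08) and without animal 6 (adjusted p = 0.055), and under 6 of 13 alternatives in all. NOTCH3 was not called without cells that had more FAP than SC marker UMIs (log2 fold change 0.65, adjusted p = 0.34), nor HES1 in cells in S or G2M (0.79, adjusted p = 0.048).

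Matrix genes moved in both directions. Of 39 genes of interstitial collagens and matrix, 13 rose and 5 fell (median 0.55), and in the SCs with SC marker UMIs 14 rose and 3 fell. COL1A2, a chain of type I collagen, was at 201, 319 and 276 CPM at P0 and 2074, 3914 and 1179 CPM at P2 in animals 5, 6 and 10, and rose by 3.03 ± 0.38 (log2, adjusted p = 0.015). COL1A1, the other chain, was at 199, 205 and 132 CPM at P0 and 1116, 2547 and 422 CPM at P2, and rose by 2.60 ± 0.45 (adjusted p = 0.031). In both genes the passages did not overlap, and animal 6 was highest at P2. Their calls were lost without animal 6 for COL1A2 (adjusted p = 0.21) and without animal 5 for COL1A1 (adjusted p = 0.0502). FN1, fibronectin, rose by 1.61 ± 0.17 (adjusted p = 0.0018) and LUM, the proteoglycan lumican, by 1.19 ± 0.10 (adjusted p = 0.00054). The call of FN1 was lost without cells that had more FAP than SC marker UMIs (log2 fold change 0.54, adjusted p = 0.8) and in cells in S or G2M (1.22, adjusted p = 0.097), and under the first of these rules 6 genes of the list rose and 3 fell. DCN (0.39 ± 0.34, adjusted p = 0.48) and COL3A1 (0.53 ± 0.33, adjusted p = 0.34) were not called.

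SFRP4, a secreted WNT antagonist, was at 606, 862 and 774 CPM at P0 and 37.1, 292 and 109 CPM at P2 and fell by 2.80 ± 0.58 (adjusted p = 0.048). That call was lost without animal 6 (adjusted p = 0.083) and without animal 10 (adjusted p = 0.41). Of 31 matricellular and protease genes, 6 rose and 10 fell, against 3 and 2 without cells that had more FAP than SC marker UMIs. THBS1, thrombospondin 1, rose by 2.62 ± 0.51 (adjusted p = 0.042) and TIMP2, an inhibitor of metalloproteinases, by 1.64 ± 0.26 (adjusted p = 0.017), whereas VCAN, the proteoglycan versican, fell by 2.27 ± 0.19 (adjusted p = 0.00084) and SERPINE2, a protease inhibitor, fell by 2.48 ± 0.43 (adjusted p = 0.029). Without animal 6 the calls of THBS1 (adjusted p = 0.2), TIMP2 (adjusted p = 0.33) and SERPINE2 (adjusted p = 0.26) were lost, and without animal 10 those of THBS1 (adjusted p = 0.38) and SERPINE2 (adjusted p = 0.2). Pooled over the animals at P0, SFRP4 was at 798 CPM in the SCs and 1349 CPM in the FAPs. VCAN was at 262 and 741 CPM and SERPINE2 at 324 and 225 CPM.

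Of 16 integrin genes tested, 4 rose, 1, ITGA5, fell and 11 were not called. Beside ITGA7, the collagen receptor subunit ITGA1 rose by 2.98 ± 0.30 (adjusted p = 0.0012) and ITGB5, a subunit of a vitronectin receptor, by 2.13 ± 0.11 (adjusted p = 8.4e-05), from 28.7, 34.1 and 32.1 CPM to 125, 149 and 142 CPM. ITGA6, a laminin receptor subunit, rose by 1.03 ± 0.27 (adjusted p = 0.036, and 0.12 without animal 5). Of 18 basement membrane genes, 4 rose and 2 fell. Among them NTN4, netrin 4, rose by 1.91 ± 0.16 (adjusted p = 0.00061), while NID2, nidogen 2, fell by 1.61 ± 0.22 (adjusted p = 0.0051) and COL18A1, a basement membrane collagen, fell by 3.53 ± 0.47 (adjusted p = 0.0038).

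ACTA2, smooth muscle alpha-actin, was at 63.6, 87.8 and 75.1 CPM at P0 and 878, 806 and 409 CPM at P2 in animals 5, 6 and 10, and rose by 3.13 ± 0.27 (adjusted p = 0.0025, and 0.12 without animal 6). MYL9, a regulatory light chain of non-sarcomeric myosin, rose by 2.34 ± 0.17 (adjusted p = 0.00049), and NES, the intermediate filament nestin, by 1.94 ± 0.29 (adjusted p = 0.013, and 0.26 without animal 6). ACTA2 was at 4151 CPM in the 134 smooth muscle and mesenchymal cells of the same animals at P0. In all, 8 of 41 YAP target and cytoskeleton genes rose and 1 fell.

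None of the 13 mitochondrially encoded genes was called (median -0.09), and of 76 cytosolic ribosomal protein genes 1 rose (RPS27L, a target of p53, by 1.24 ± 0.09, adjusted p = 0.00042) and none fell. Of 46 ribosome biogenesis genes 2 fell, of 27 glycolysis genes 1 rose and 3 fell, of 34 cholesterol and fatty acid synthesis genes 2 rose and 1 fell, and of 34 ATF4 and amino acid stress genes 2 rose and 2 fell. Over all genes 6.02% rose and 4.53% fell, and the ribosome biogenesis, cholesterol and ATF4 counts were near or below these shares.

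Markers of other cell types moved with these results. The summed level of 13 vascular endothelial markers in the SCs was 23.6, 31.5 and 33.9 CPM at P0 and 15.2, 9.21 and 7.97 CPM at P2, with 6 of the 9 tested called lower, and PECAM1, the defining endothelial adhesion molecule, had 56 UMIs at P0 and none at P2. PECAM1 and ESAM had no UMI at P2 and passed the count filter through P0 alone, so the count leans towards genes high at P0. In the SCs with SC marker UMIs 2 of the endothelial markers fell. The 11 lymphocyte and neutrophil markers, of which 3 were tested and all 3 fell, summed to 54.5 to 82.0 CPM at P0 and 0.126 to 0.382 CPM at P2. The 3 were S100A8, S100A9 and S100A12, at 23.0, 24.7 and 15.7 CPM pooled at P0, which made up most of the sum. They passed the count filter through P0 alone, so their fall was favoured in advance. The lymphocyte marker CD3E was at 0.279 CPM at P0, and CD2 and MS4A1 had no UMI at either passage. The 14 macrophage markers (6 tested, 4 lower and 1 higher) summed to 21.8 to 23.4 CPM at P0 and 6.86 to 8.13 CPM at P2. The 11 smooth muscle markers (9 tested, 4 higher and 1 lower) summed to 130.1 to 229 CPM at P0 and 526 to 1384 CPM at P2. ACTA2 and DES, which is also an SC marker, made up most of the sum at either passage. Of the others, pooled over the animals, TAGLN (3.46 to 25.8 CPM) and NOTCH3 (8.08 to 29.3 CPM) were higher at P2. MYLK (1.67 to 1.58 CPM) and PDGFRB (1.06 to 0.861 CPM) were near level, and KCNJ8 (1.39 to 0.0115 CPM) was lower. The 13 FAP markers (5 higher, 2 lower) summed to 2741 to 3099 CPM and 4562 to 10778 CPM, with PDGFRA not called (log2 fold change -1.64 ± 0.56, adjusted p = 0.13). The members did not move together. Pooled over the animals, CCDC80 went from 339 to 1705 CPM, above the 516 CPM of the P2 FAPs of these animals. DCN, LUM, COL3A1 and MFAP5 were also higher at P2. PDGFRA (70.1 to 25.7 CPM), ITGA5 (57.2 to 19.6 CPM), DPT (6.64 to 2.16 CPM) and FBLN1 (7.47 to 3.78 CPM) were lower. PDGFRA was called lower with no replicate block (-1.52, adjusted p = 0.041), without animal 6 (-2.32, adjusted p = 0.00028) and without cells that had more FAP than SC marker UMIs (-1.34, adjusted p = 0.012). The last rule selects cells on PDGFRA itself, so its result is not independent evidence. Of 2 glial markers tested 1 rose (OXT), and of 2 lymphatic endothelial markers none was called. At P0 the dishes also held FAPs, endothelial cells, smooth muscle and mesenchymal cells, monocytes and macrophages and glial cells, with no cell labelled as a lymphocyte or neutrophil, and at P2 nearly only SCs, but the pooled P2 library also held the FAPs of the other cultures. The part of RNA from other cells in the values of either passage was not tested.

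The same passage comparison was made in the SCs of the unsorted cultures and set against that of the sorted cultures. At P2, FAPs made up 75.9%, 88.9% and 81.0% of the cells of unsorted animals 1, 2 and 9. In sorted animals 5, 6 and 10 they made up 1.66%, 0.641% and 1.09%. Animal 2 gave only 45 SCs at P0. The part of RNA from FAPs in the values of the unsorted SCs was not tested. The difference in change was called higher for the sorted SCs in 85 of 11938 genes (0.712%) and lower in 337 (2.82%). DESeq2, with its own size factors, called 225 higher and 450 lower. Mitosis genes made up 10 of the 85 called higher by edgeR, and none of that list was lower. Over all genes, only 8 were called higher without animal 1 and 12 without animal 9, so the mitosis calls cannot all hold without animal 1. UBE2C, a ubiquitin carrier of the anaphase, went from 179 to 148 CPM on average in the sorted SCs and from 166 to 20.5 CPM in the unsorted SCs, a difference of 2.76 ± 0.49 (log2, adjusted p = 0.021). PCLAF, a PCNA-associated factor, went from 112 to 78.7 CPM and from 92.1 to 12.9 CPM (difference 2.40 ± 0.55, adjusted p = 0.048). The median log2 fold change of the mitosis list was -0.41 in the sorted and -2.26 in the unsorted SCs. The mean change of the G1 share was 20.7 percentage points in the sorted SCs and 40.0 in the unsorted SCs, and the difference was not resolved by 3 against 3 animals (exact permutation test, two-sided p = 0.2, smallest possible 0.1).

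Among the genes whose change was lower in sorted SCs were 12 of 36 chemokine and NF-kB genes, 12 of 26 interferon-stimulated genes, 8 of 32 immediate early genes and 7 of 39 matrix genes. STEAP4, a metalloreductase induced by cytokines, went from 19.5 to 1.35 CPM in the sorted SCs and from 16.3 to 25.8 CPM in the unsorted SCs (difference -4.62 ± 0.45, adjusted p = 0.00065). SFRP4 went from 743 to 139 CPM and from 649 to 2981 CPM (difference -4.76 ± 0.84, adjusted p = 0.024). IFI27, an interferon-induced protein of mitochondria, went from 8.98 to 11.9 CPM and from 4.01 to 126 CPM (difference -4.79 ± 1.03, adjusted p = 0.045). Of the 24 genes with the largest called change at a mean of 20 CPM or more in the sorted SCs, none was called in this test. Their fitted differences ran from -6.03 to 5.45 on the log2 scale. Only 0.712% of all genes were called higher and 2.82% lower, so this does not show equal change in both cultures. MYOG (difference -3.62 ± 1.82, adjusted p = 0.30) and MYOD1 (-2.04 ± 1.25, adjusted p = 0.40) were not resolved between the cultures, and ITGA7 changed more in the sorted SCs (difference 1.06 ± 0.25, adjusted p = 0.035). The number of genes called rested on single animals, with 77 called without animal 1, 112 without animal 9, 245 without animal 10, 258 without animal 5 and 651 without animal 6.

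Against the FAPs of the sorted FAP cultures, the change was called higher in SCs in 711 genes (5.96%) and lower in 1290 (10.8%). Differentiation and sarcomere genes were higher in 11 of 33 and SC identity genes in 10 of 29 tested in both. MYLPF went from 0.523 to 13.9 CPM in FAPs, and TNNT1, a slow troponin T, from 1.45 to 0.508 CPM while SCs went from 0.335 to 11.95 CPM (difference 6.28 ± 0.67, adjusted p = 7.5e-05). Interferon-stimulated genes were lower in SCs in 20 of 26, chemokine and NF-kB genes in 26 of 36 and matrix genes in 24 of 39. OAS1Y, an antiviral oligoadenylate synthetase, went from 9.87 to 1.56 CPM in SCs and from 1.48 to 51.5 CPM in FAPs (difference -7.71 ± 0.65, adjusted p = 0.00011). Of the 24 genes with the largest called change at a mean of 20 CPM or more in SCs, 6 differed upwards and 9 downwards from FAPs. These 24 genes had been selected on the same SC values, which favours such differences, so the count is no independent result. The P0 and P2 libraries were shared by all 3 kinds of culture, whereas the animals and coatings differed. The part of RNA from SCs in the FAP values was not tested.

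The SCs of these animals were also present in the fresh muscle and at later passages, and the levels over the whole course are given as a description. MYOG was at 865 CPM on average in fresh muscle, 3.95 at P0, 124 at P2, 137 at P5 and 86.1 at P8, where only animals 6 and 10 had 10 or more SCs (25 and 36). Fresh muscle held 76 to 98 SCs per animal with 327131 to 450674 UMIs in all, so low levels there were measured with little precision. MYF5 was at 477, 69.2, 151, 179 and 182 CPM, and CHODL at 273, 9.40, 0.95, 0.66 and 0 CPM over the same 5 timepoints. The level of IL1R2 was 0 CPM in fresh muscle, 363 at P0, and 0.33, 0.26 and 0 at the later passages. MT1A (205, 4723, 14.0, 3.88 and 9.62 CPM) likewise had its highest level at P0. CCND1 stood at 4.44, 32.0, 401, 662 and 977 CPM, higher on average at each later timepoint. COL1A2 was at 183, 266, 2391, 7524 and 3529 CPM, and DKK2 at 0, 0.15, 59.5, 77.7 and 85.3 CPM.

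**Figure D5:**
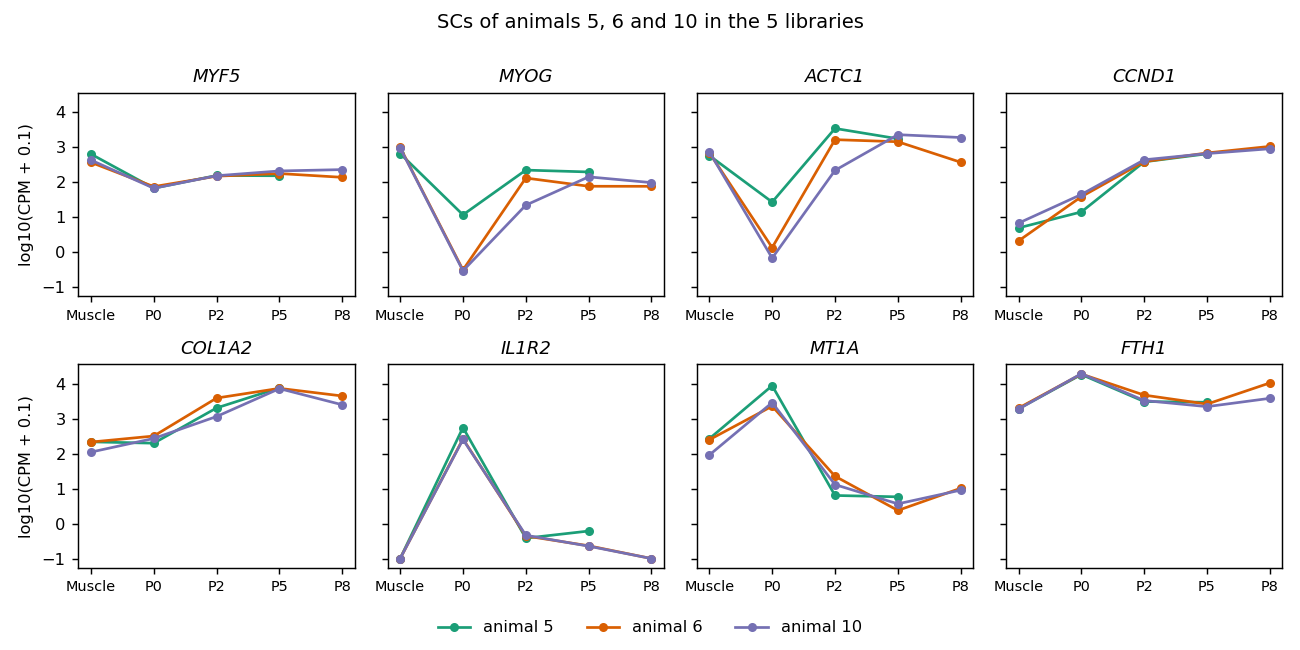
Levels, as log10(CPM + 0.1), of 8 genes in the SCs of animals 5, 6 and 10 in fresh muscle and at P0, P2, P5 and P8, with 1 line per animal. IL1R2 and MT1A peak at P0, MYOG is lowest at P0, and CCND1 climbs over the course.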

How the data were processed

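The UMI counts were deposited by the authors as one 10x matrix per timepoint, made with Cell Ranger 6.0.1 on the bovine genome ARS-UCD1.2, and were used as deposited. The authors assigned cells to animals by genotype with demuxlet and deposited a table of the cells that passed their quality control, all classed as singlets by genotype, with cell type, cell cycle phase and the percentage of mitochondrial UMIs per cell. Cell types had been labelled by the authors per timepoint. No other doublet caller was run, and 8 further columns of the cell table were not used.

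UMIs of all cells of a type, animal and passage were summed. The P2 and P0 sums of SCs were compared in edgeR 4.0.16 (R 4.3.3) with filterByExpr, TMM scaling, the animal as a block and the robust quasi-likelihood F test, with Benjamini-Hochberg adjustment over all genes tested. SE is the log2 fold change divided by the square root of F. Since the same 3 animals were measured at both passages, the samples were paired by design, and deviations of the same animal correlated at 0.274, 0.114 and 0.231 across genes. Differences between cultures came from 1 such fit of 18 sums. Shares were compared by exact sign-flip or label permutation tests. Cells were thinned to 5000 UMIs with a fixed seed, and shallower cells were left out.

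The members, gene lists and tests were chosen with earlier results of these data known. Named genes were the SC markers, the 12 called genes with the largest change per direction at a mean of 20 CPM or more, up to 6 called genes of each list, and the 6 with the largest called difference per direction. The 12 per direction were taken among genes with a symbol that changed in the same direction in all 3 animals. CDH2, EREG, FN1, FTL, IL18, LUM, MDM2, PTX3, SDC4, SERPINE2, SOD2, THBS1, TIMP2, TRIM63, VCAN, CXCL9, CXCL11, MKI67, TOP2A, CDKN1B, DCN, COL3A1, MT2A and PDGFRA were named after their values were seen. Where 68 symbols stood for more than 1 gene, the gene with more UMIs was used. In simulated counts with 200 changed genes, 68.75% of those changed by 1.5 on the log2 scale, 88.3% by 2 and 95.8% by 3 were called, with 6 false calls among 11637. For the difference from unsorted SCs these shares were 53.2%, 66.2% and 88.4%, and for that from FAPs 57.6%, 67.7% and 90.1%. The simulation drew from 1 expression profile with no library effect and no paired animal effect. Its false calls therefore do not measure errors from such effects in the data. DESeq2 1.42.0, Python 3.11.15, pandas 2.3.3, scipy 1.17.1 and matplotlib 3.10.9 were also used.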

Additional observations from a re-analysis of the deposited data

Results flagged for a closer look

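The change from P0 to P2 differed between the SCs of sorted and unsorted cultures, by edgeR's test of the difference itself, in the genes given here as mean CPM and log2 difference (sorted minus unsorted). Lower in sorted SCs were ANPEP, an aminopeptidase (-5.55, sorted 9.32 to 1.29 CPM, unsorted 2.49 to 13.2 CPM), and CCL17, a chemokine (-5.69, sorted 28.1 to 1.47 CPM, unsorted 4.63 to 14.6 CPM). STAR, the cholesterol carrier of steroid synthesis, had no UMI in the unsorted SCs at P0 and 25.9 CPM there at P2, while the sorted SCs went from 0.375 to 2.86 CPM, so that its fitted difference of -8.71 depends on the prior count and is no bound. IFI27 (-4.79), SFRP4 (-4.76) and STEAP4 (-4.62) are described above. Higher in sorted SCs were the cell cycle genes UBE2C (2.76), CENPT (2.75), ESCO2 (2.70), GTSE1 (2.61) and PCLAF (2.40) and the mitochondrial fission gene MTFR2 (2.81). All of these 6 were lower at P2 in both cultures on average, with MTFR2 at 15.1 and 9.75 CPM in sorted and at 14.8 and 1.26 CPM in unsorted SCs. The sorting gene ITGA7 also changed more in sorted SCs (1.06).

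Against FAPs of the sorted FAP cultures (log2 difference, SCs minus FAPs), muscle structure genes differed upwards in SCs, with TNNT1 at 6.28, NEB at 4.87, TNNT2 at 4.79, MYLPF at 4.62, TNNC2 at 4.19 and TNNC1 at 3.42. DKK2 (6.64), OXT (4.94) and IL17B (4.82) also differed upwards, as did the SC markers and sort genes NCAM1 (4.32), DES (2.28), ITGA7 (2.00), MET (1.52) and MYF5 (1.33). F11R (5.16) was level in SCs and went from 1.33 to 0.0281 CPM in FAPs, and ITGA5 (-1.65) was level in FAPs, at 163 and 168 CPM. SAA3 (-8.84), M-SAA3.2 (-8.51) and HP (-7.91) differed downwards, and HP was at 2.34 and 3.79 CPM in FAPs. CLEC12B (-9.38, FAPs 0.0614 to 90.6 CPM), OAS1Y (-7.71) and the gene ENSBTAG00000022395, which has no symbol (-7.59, SCs 55.4 to 1.24 CPM, FAPs 1.93 to 10.5 CPM), followed. The FAP levels of CLEC12B at P0 and of F11R at P2 rest on very few UMIs, so the size of those differences is imprecise. IL1R2 (-5.47), S100A8 (-5.94), S100A9 (-4.75), GPX3 (-4.62), SLPI (-4.37), FGL2 (-3.96), MT1A (-3.70) and MT1E (-2.69) also differed downwards.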

How the results depend on the processing

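In the sorted SC cultures 1227 genes were called, 1136 with no replicate block (1063 of them shared), 1186 by DESeq2, 861 after thinning to the smallest sum and 853 to 1349 without 1 animal. The count was 724, of 7760 genes tested, without cells that had more FAP than SC marker UMIs, a rule that removed 835 of 906 SCs at P0 and 2582 of 3299 at P2. Under it ID2, an inhibitor of myogenic factors, had a log2 fold change of -0.0136 and IL18 of -0.43. Counts in SCs with SC marker UMIs (1123), without a MYOG UMI (1121) and in S or G2M (943) were added after the data were seen. Of 162 named genes called, 84 kept the call under every alternative that tested them. Of up to 14 alternatives, 9 ended the call of MT1A, 8 those of ACTN1, MYOD1 and THBS1, and 7 those of CEBPB, MYBBP1A, MYH11 and SFRP4. The calls of ACSS2, CCL17, CD68, FGFR4, GINS4, ITGA6, NOTCH1 and PMVK were lost under 6, and those of ADM, CDKN1C, COL1A1 and FBLN2 under 5. The difference from unsorted SCs (422 genes) gave 228 with no replicate block, 675 by DESeq2, which left 695 adjusted p-values undefined, and 77 to 651 without 1 animal. The count in the unsorted SCs (1743) was 1146 to 1760 without 1 animal, and the difference from FAPs (2001) was 1054 after thinning, where fewer genes (8198) were tested. The rise in cells with a UMI was 22.4 percentage points for MYF5 and 15.8 for MYOG unthinned, against 17.7 and 9.03 with all cells of both passages thinned to 5000 UMIs. Other causes were not tested.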

Other observations

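The changes in CXCL9 and CXCL11 lay outside the gene lists, and these genes and MDM2 were named after their values were seen. TM7SF2 and OXT, also given here, were members of the lists. CXCL9 and CXCL11, chemokines that attract T cells and respond to interferon gamma, rose while most chemokines tested did not. CXCL9 was at 27.0, 9.47 and 8.13 CPM at P0 and 432, 301 and 124 CPM at P2 in animals 5, 6 and 10 (log2 fold change 4.34 ± 0.24, edgeR adjusted p = 0.00027). CXCL11 was at 2.42, 9.88 and 12.5 CPM at P0 and 32.8, 139 and 123 CPM at P2 (3.59 ± 0.16, adjusted p = 6.7e-05). In neither gene did the passages overlap, and the order of the animals differed between them.

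TM7SF2, a sterol reductase of cholesterol synthesis, was at 3.46, 9.06 and 11.3 CPM at P0 and 196, 123 and 127 CPM at P2 (4.08 ± 0.41, adjusted p = 0.005, and 0.12 without animal 6), while the median of the cholesterol and fatty acid synthesis list was -0.14. MDM2, the ligase that degrades p53, rose by 1.10 ± 0.14 (adjusted p = 0.0027), beside RPS27L and CDKN1A. In SCs in G1 none of these kept its call, at log2 fold changes of 0.81 for MDM2, 0.96 for RPS27L and 1.41 for CDKN1A (edgeR adjusted p = 0.061). MDM2 also missed the fold without cells that had more FAP than SC marker UMIs (0.89). No set of p53 targets was tested. The glial marker OXT, oxytocin, was at 0.346, 1.32 and 1.32 CPM at P0 and 10.3, 39.8 and 15.1 CPM at P2 (4.46 ± 0.30, adjusted p = 0.00029).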
